A study of Mus musculus with 6 samples.

Results

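The small leucine-rich proteoglycans (SLRPs) are described here through 10 genes, namely Dcn, Bgn, Lum, Fmod, Prelp, Ogn, Omd, Kera, Aspn and Podn. They were chosen by name, and all 10 were found among the 23107 genes listed for 6 aortic valve libraries of outbred mice aged 4 months. The 3 mutant libraries came from caAcvr1:Nfatc1Cre mice, which carry a Cre-activatable transgene for constitutively active Acvr1, a BMP type I receptor, together with a Cre knocked into the Nfatc1 locus. That Cre recombines in the endocardium, in valve interstitial cells and at the leaflet–wall junction, and the study describes no recombination in myocardium or smooth muscle. The 3 control libraries are labelled wild type, and the study's controls lacked the transgene, the Cre or both. Neither the number of animals per library nor their sex is given in the sources used here.

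SLRPs are secreted proteins built around leucine-rich repeats, and most carry chondroitin, dermatan or keratan sulfate chains. They bind fibrillar collagens, set the width and spacing of fibrils, and hold growth factors such as TGF-beta in the matrix. In a valve leaflet this matrix is layered into a collagen-rich fibrosa, a proteoglycan-rich spongiosa and an elastic ventricularis. The question for this family is whether its transcripts differed between mutant and control valves.

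Counts are fragments assigned to genes. Levels are given as CPM, counts scaled to a common library total after correction of library sizes by the trimmed mean of M values (TMM), and levels of different genes are compared only as CPM per kb of exon. Where values of a gene are given in series, they follow the order of replicates 1, 2 and 3 in each group. Library totals ran from 46180667 to 55728852 counts in the controls and from 32218345 to 53129462 in the mutants. A count of 0 would allow a level of up to 0.0560 to 0.0942 CPM per library (3 counts, counting error only). Tissue markers were present in all libraries, with summed levels of 8250 to 11660 CPM over 10 interstitial markers and 2063 to 3063 CPM over 10 endothelial markers. Cardiac muscle was present as well, at 13650 to 44990 CPM over 12 markers. The targeted receptor did not separate the groups. Acvr1 was read at 49.1, 60.5 and 67.4 CPM in the controls and at 56.5, 57.9 and 49.9 CPM in the mutants, and transgene and endogenous fragments are not told apart. Xist had 2920 and 3061 counts in control and mutant replicate 1, where the Y-linked gene Ddx3y had 14 and 18. Control replicates 2 and 3 had 15 and 29 Xist counts, and mutant replicates 2 and 3 had 777 and 372 beside 3040 and 2799 of Ddx3y, so that both sex-linked signals were present in those mutants.

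The 10 genes lie mostly in clusters. In the GRCm38 (mm10) assembly, Dcn, Lum, Kera and Epyc follow each other on the plus strand of chromosome 10 from 97479609 to 97682454. On chromosome 13, Ecm2, Aspn, Omd and Ogn do so from 49504810 to 49624501, with gaps of 11.7, 14.9 and 15.2 kb. On chromosome 1, Optc and Prelp lie on the minus strand 2.3 kb apart, and Fmod lies 115.8 kb beyond Prelp on the plus strand. Bgn lies alone on chromosome X (73483602 to 73495933) and Podn on chromosome 4 (108014791 to 108096445). Cenpp spans the chromosome 13 members on the opposite strand, sharing 7 bases of exon with Aspn and none with Omd or Ogn, and the antisense gene Gm15851 shares 350 bases of exon with Prelp. The library kit named in the labels does not mark strand, and Gm15851 is not among the listed genes, so fragments of either gene from those 350 bases could only be counted for Prelp.

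Promoter windows of 300 bases, 250 before and 50 from the RefSeq start on (GRCm38.p6), were matched for 8 of the 10 members, all but Dcn and Lum. The windows shown are those of Bgn, Ogn and Omd, which were highest in the same control library, and of Fmod, which was lowest there. Each is printed 5′ to 3′ on the strand of its gene, with CG dinucleotides in capitals.
Ogn (chr13:49607765-49608064, plus strand): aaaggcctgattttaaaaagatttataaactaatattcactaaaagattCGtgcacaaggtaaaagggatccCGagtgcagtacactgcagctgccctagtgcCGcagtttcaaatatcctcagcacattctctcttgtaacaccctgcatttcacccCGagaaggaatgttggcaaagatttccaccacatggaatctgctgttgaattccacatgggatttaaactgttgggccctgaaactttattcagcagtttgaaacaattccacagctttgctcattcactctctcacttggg
Omd (chr13:49582212-49582511, plus strand): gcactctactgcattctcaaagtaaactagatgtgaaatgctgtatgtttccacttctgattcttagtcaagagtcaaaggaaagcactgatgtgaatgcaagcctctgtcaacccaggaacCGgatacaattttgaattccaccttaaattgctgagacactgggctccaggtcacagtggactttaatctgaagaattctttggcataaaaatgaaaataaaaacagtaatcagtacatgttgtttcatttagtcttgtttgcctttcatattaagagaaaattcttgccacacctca
Bgn (chrX:73483351-73483650, plus strand): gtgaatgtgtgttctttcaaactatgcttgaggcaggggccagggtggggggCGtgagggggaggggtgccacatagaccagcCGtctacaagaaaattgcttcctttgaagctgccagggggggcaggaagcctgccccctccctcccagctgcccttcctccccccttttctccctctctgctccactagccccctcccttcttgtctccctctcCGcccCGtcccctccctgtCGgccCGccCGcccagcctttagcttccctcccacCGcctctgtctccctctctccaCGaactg
Fmod (chr1:134037004-134037303, plus strand): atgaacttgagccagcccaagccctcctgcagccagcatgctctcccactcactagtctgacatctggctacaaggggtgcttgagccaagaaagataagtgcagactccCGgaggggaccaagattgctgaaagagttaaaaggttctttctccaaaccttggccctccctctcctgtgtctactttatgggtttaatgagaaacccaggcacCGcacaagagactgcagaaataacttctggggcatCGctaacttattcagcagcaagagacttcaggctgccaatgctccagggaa

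These windows hold 4 CG dinucleotides for Ogn, 1 for Omd, 9 for Bgn and 3 for Fmod, where the median of all 32851 windows is 7. The first of 2 windows of Podn (chromosome 4, 108031905 to 108032204, minus strand) holds 41. On either strand, the letters TATAAA are in the windows of Ogn and Aspn, and in 13.6% of all windows. The letters GGCGCC, a core of BMP-responsive elements bound by Smad proteins, are in the first window of Podn alone among the members and in 11.9% of all windows. CAGAC, which contains a Smad-binding core, is in the windows of Fmod and Prelp and, of Podn, in the second, and in 49.6% of all windows. Such matches are descriptions of these windows and not shown to be bound.

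Decorin was the most abundant member. Per length, Dcn was read at 905 ± 168 CPM per kb (SD, n = 6 libraries), followed by Lum at 496 ± 113, Prelp at 342 ± 59.1, Bgn at 210 ± 47.5 and Ogn at 128 ± 40.9 CPM per kb. Fmod (60.2 ± 9.1) and Aspn (41.2 ± 7.07 CPM per kb) came next. Podn (10.6 ± 4.94), Omd (7.37 ± 2.98) and Kera (0.763 ± 0.623 CPM per kb) were the lowest. The ranges of Dcn and Lum did not overlap across the 6 libraries, nor did those of Ogn and Fmod, of Aspn and Podn or of Omd and Kera. Among the neighbours whose ranges did overlap, Prelp lay above Bgn in 5 of 6 libraries and Podn above Omd in 4 of 6, and the other 3 pairs kept their order in all 6. The place of Bgn rested on the exon length. Over its longest transcript (2666 bases, against 6099 bases of merged exons) it was read at 481 CPM per kb, which placed it above Prelp. That transcript has 1 exon, and the length of a spliced Bgn transcript was not used, so its place is uncertain. Together the 10 genes took 0.923% ± 0.0693 (SD, n = 3) of all counts in the controls and 1.01% ± 0.16 (SD, n = 3) in the mutants. The difference of 0.0898 percentage points was 0.0314 without mutant replicate 3, 0.0526 without control replicate 2, 0.0569 without mutant replicate 2 and 0.181 without mutant replicate 1. Dcn, Bgn, Lum and Prelp made up 89.8% to 94% of the family's counts in each library.

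**Figure D1:**
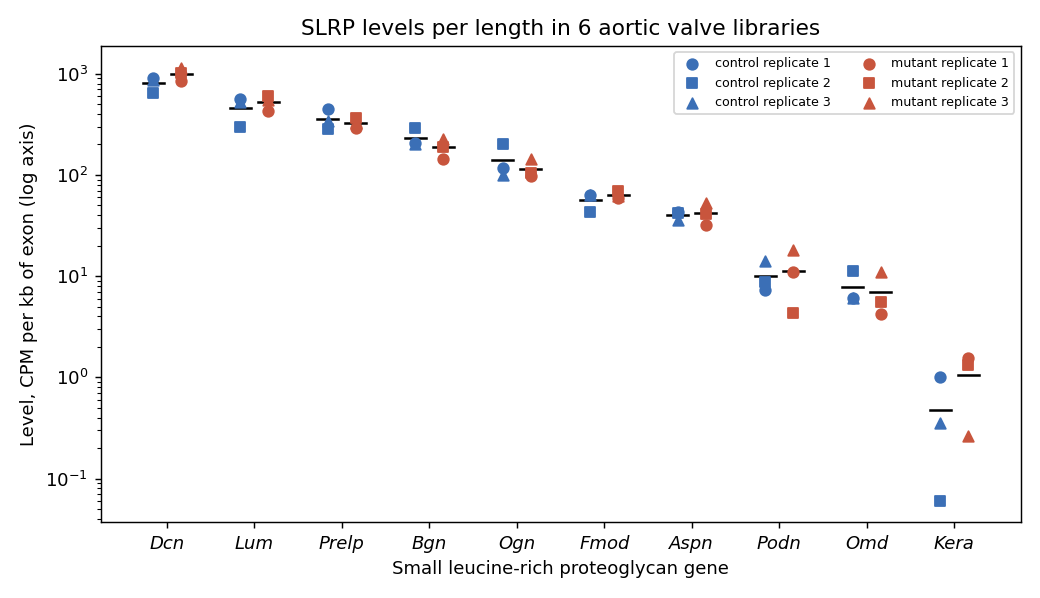
Level per length of each member (log axis, CPM per kb of exon) in every library, controls in blue and mutants in red, with a black line at the group mean. From Dcn, at 649 to 1150 CPM per kb, to Kera, at 0.0607 to 1.57, mutant and control points overlap in every gene.

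Between mutant and control valves, 0 of the 10 members had an adjusted p under 0.05 in the quasi-likelihood test of edgeR, against 0 of all 15354 genes tested (0%). At an unadjusted p under 0.05 there were also 0 members, against 3.45% of all genes, and in DESeq2 0 members passed, against 0.169%. In 0 members did the 3 mutants lie all above or all below the 3 controls, which was the case for 8.87% of all genes (4.04% with all mutants above and 4.83% with all mutants below). By direction alone, 6 of them lay higher and 4 lower in mutant valves, with a median log2 fold change of 0.10, and the median over all genes was 0.01. The adjusted p of each member was 0.999 in edgeR. As the tissue was sequenced in bulk, fewer cells of a type and less RNA per cell cannot be told apart.

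The class I SLRPs are Dcn, Bgn and Aspn. Dcn encodes decorin, which coats collagen fibrils and carries a single chondroitin or dermatan sulfate chain. It was read at 5347, 3789 and 5018 CPM in the controls and at 4944, 5888 and 6708 CPM in the mutants. The lowest value was that of control replicate 2 and the highest that of mutant replicate 3, and the groups overlapped through mutant replicate 1. The log2 fold change was 0.31 (standard error 0.29), with a 95% confidence interval from -0.37 to 0.99. It was 0.18 without control replicate 2, 0.20 without mutant replicate 3 and 0.42 without mutant replicate 1. In the last case both remaining mutants lay above all controls, and without that library the groups of 19.3% of all genes did not overlap.

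Bgn encodes biglycan, which usually carries a pair of such chains and is released as a ligand of Toll-like receptors. Bgn was read at 1255, 1759 and 1245 CPM in the controls and at 882.7, 1149 and 1397 CPM in the mutants. Control replicate 2 was the highest library and mutant replicate 1 the lowest. The fold change on the log2 scale was -0.31 (standard error 0.25, 95% confidence interval -0.90 to 0.28). Without control replicate 2 it was -0.13 and without mutant replicate 1 -0.16. Without mutant replicate 3 it was -0.48 and the remaining mutants lay below all controls, where the groups of 17.2% of all genes did not overlap. Aspn encodes asporin, which lacks the chain and binds TGF-beta and collagen. Its values were 102.5, 99.0 and 85.1 CPM in the controls and 75.0, 96.7 and 123.9 CPM in the mutants, so the mutants spanned the controls on either side. The difference was 0.04 on the log2 scale (standard error 0.19, 95% confidence interval -0.40 to 0.49), and it was -0.03 without control replicate 3 and -0.15 without mutant replicate 3.

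Of the class II SLRPs, Lum encodes lumican and Fmod fibromodulin, keratan sulfate proteoglycans that share a binding site on collagen. Lum was read at 1375, 734.1 and 1277 CPM in the controls and at 1054, 1484 and 1360 CPM in the mutants. Control replicate 2 was the lowest library, and the next was mutant replicate 1. The log2 fold change of Lum was 0.20 (standard error 0.28, 95% confidence interval -0.47 to 0.87), and -0.03 without control replicate 2. Fmod was also lowest in control replicate 2 and highest in mutant replicate 2, with 209.5, 142.3 and 208.1 CPM in the controls against 197.2, 231.8 and 205.1 CPM in the mutants. The other 5 libraries of Fmod lay between 197.2 and 231.8 CPM. For Fmod the log2 fold change of 0.18 (standard error 0.17, 95% confidence interval -0.23 to 0.59) became 0.02 without control replicate 2.

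Prelp encodes a class II protein with a basic, heparan sulfate-binding end in place of sulfated tyrosines. It was read at 1619, 1038 and 1224 CPM in the controls and at 1055, 1307 and 1167 CPM in the mutants, with the highest and the lowest value both among the controls. The log2 fold change was -0.14 (standard error 0.22, 95% confidence interval -0.66 to 0.39) and turned to 0.06 without control replicate 1.

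Omd encodes osteomodulin, a keratan sulfate proteoglycan known from mineralized tissue. Its level was 13.6, 25.3 and 13.8 CPM in the controls and 9.5, 12.6 and 24.7 CPM in the mutants, where control replicate 2 and mutant replicate 3 stood above the other 4 libraries. The log2 fold change of -0.17 (standard error 0.41) was 0.19 without control replicate 2, 0.08 without mutant replicate 1 and -0.67 without mutant replicate 3. Kera encodes keratocan, best known from the corneal stroma. Its counts were 123, 7 and 37 in control and 185, 120 and 19 in mutant libraries. On the CPM scale this is 2.30, 0.138 and 0.805 against 3.57, 3.04 and 0.597, a 25.8-fold spread across all libraries. The log2 fold change was 1.16 (standard error 0.98, 95% confidence interval -1.17 to 3.48). With control replicate 1 left out it came to 2.36, and with control replicate 2 left out to 0.64. Removing mutant replicate 1 gave 0.75, and removing mutant replicate 3 gave 1.61.

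Ogn encodes osteoglycin (mimecan), a class III SLRP. Its values were 299.0, 523.1 and 258.2 CPM in the controls and 250.2, 266.4 and 367.3 CPM in the mutants, with control replicate 2 highest. The log2 fold change was -0.29 (standard error 0.29, 95% confidence interval -0.98 to 0.41) and 0.08 without that library. Podn encodes podocan, a class V SLRP that binds collagen and is known from vascular smooth muscle. Podn was read at 30.9, 37.5 and 59.9 CPM in the controls and at 47.2, 18.6 and 77.4 CPM in the mutants, so the extremes both lay in mutants. For Podn the log2 fold change was 0.16 (standard error 0.49, 95% confidence interval -1.01 to 1.32), and it was -0.03 without control replicate 1, 0.47 without control replicate 3, 0.54 without mutant replicate 2 and -0.38 without mutant replicate 3.

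**Figure D2:**
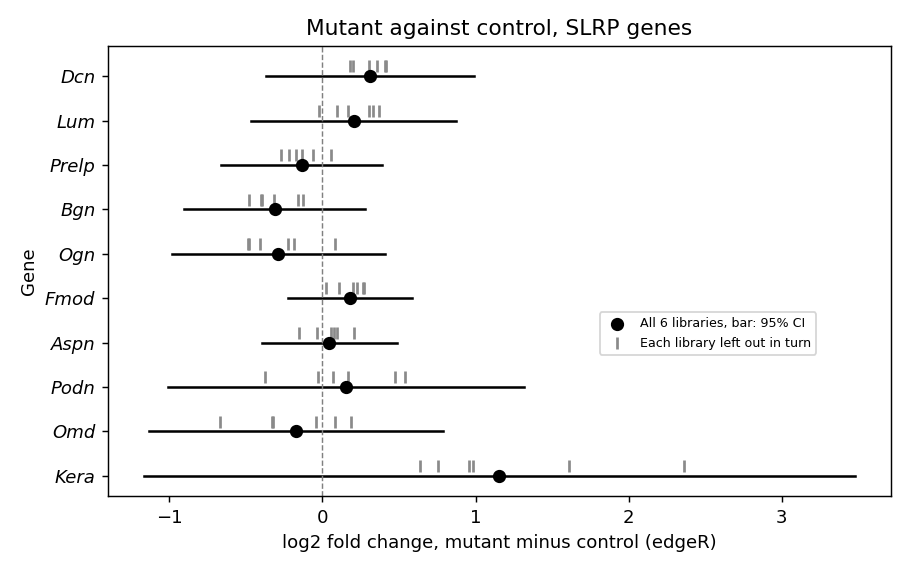
Log2 fold change of each member, mutant minus control, from edgeR (x axis; black point with its 95% confidence interval) and the values with each library left out in turn (grey ticks). Every interval crosses 0, and that of Kera, from -1.17 to 3.48, is the widest.

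The members varied from library to library. In control replicate 2, 5 members (Dcn, Lum, Fmod, Prelp and Kera) had their lowest value of the 6 libraries and 3 (Bgn, Ogn and Omd) their highest. Of all genes tested, 24.9% were lowest and 24.4% highest in that library. Averaged over the 10 members, the deviation of a library from the mean of its gene was 0.54 on the log2 scale in control replicate 2, and from 0.19 to 0.37 in the other 5. Over all genes tested these were 0.29 and from 0.17 to 0.24. The SD of log2 CPM within groups was 1.05 for Kera, 0.80 for Podn, 0.60 for Omd and 0.43 for Ogn, where genes within 2-fold of their level had median SDs of 0.40, 0.16, 0.20 and 0.19. It was above that median for Lum (0.39 against 0.33), Fmod (0.24 against 0.16) and Aspn (0.27 against 0.15) as well. It was below it for Bgn (0.31 against 0.33), Prelp (0.25 against 0.33) and Dcn (0.24 against 0.69, over 21 genes). Tissue markers moved with this library. Summed over 7 mesothelial genes the level was 1344 CPM in control replicate 2 and 130.5 to 553.9 CPM in the other libraries, over 10 smooth muscle genes 14760 against 4040 to 8148 CPM, over 10 adipocyte genes 1476 against 431.9 to 1124 CPM, and over 12 cardiac muscle genes 13650 against 20190 to 44990 CPM. Over 7 melanocyte genes it was 28.1 against 84.3 to 200.8 CPM. The sums of cartilage and tendon markers, at 298.0 and 339.5 CPM, were lowest there too. The tendon list includes the members Fmod and Kera, and Fmod alone gave 142.3 CPM of its sum there. The interstitial sum was highest in control replicate 2, at 11660 against 8250 to 10820 CPM. So was the endothelial sum, at 3063 against 2063 to 2753 CPM. None of these markers was at 0 in all libraries. Their part in the SLRP values was not tested.

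Members of a cluster could share their extreme library or differ in it. Dcn, Lum and Kera of chromosome 10, and Epyc beside them, were each at their lowest in control replicate 2. Ogn and Omd were highest there and their neighbour Aspn was not, with 99.0 CPM in that library against 123.9 CPM in mutant replicate 3. Likeness of profile was measured as the root mean square difference of the mean-centred log2 CPM over the 6 libraries. The closest pairs of members were Dcn with Fmod and Lum with Fmod (0.14 each), genes of different chromosomes, then Dcn with Lum (0.17) and Bgn with Ogn (0.18). Ogn and Omd differed by 0.24, and the most unlike pair was Omd and Kera (1.44). Among 10077 genes outside the family with a mean of at least 10 CPM, the closest to Bgn was Prkcdbp (difference 0.0075), a caveolae component, and the closest to Dcn was Csf2ra (0.0605). The closest to Lum was Coro1a (0.0986), to Prelp Cbx7 (0.0757), to Ogn Dzip1l (0.0737), to Omd Pi15 (0.121) and to Aspn Zfp187 (0.0601). Fmod was closest to 1810058I24Rik (0.0254). Kera was closest to Ankrd23 (0.301), a gene of striated muscle, and Podn to Hamp (0.208), which encodes hepcidin. The measure grows with the spread of the member itself, whose SD over the 6 libraries was 0.98 for Kera, 0.66 for Podn and 0.22 for Prelp on the log2 scale. How close the nearest of 10077 genes lies for genes outside the family was not measured, so these matches are descriptions only.

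**Figure D3:**
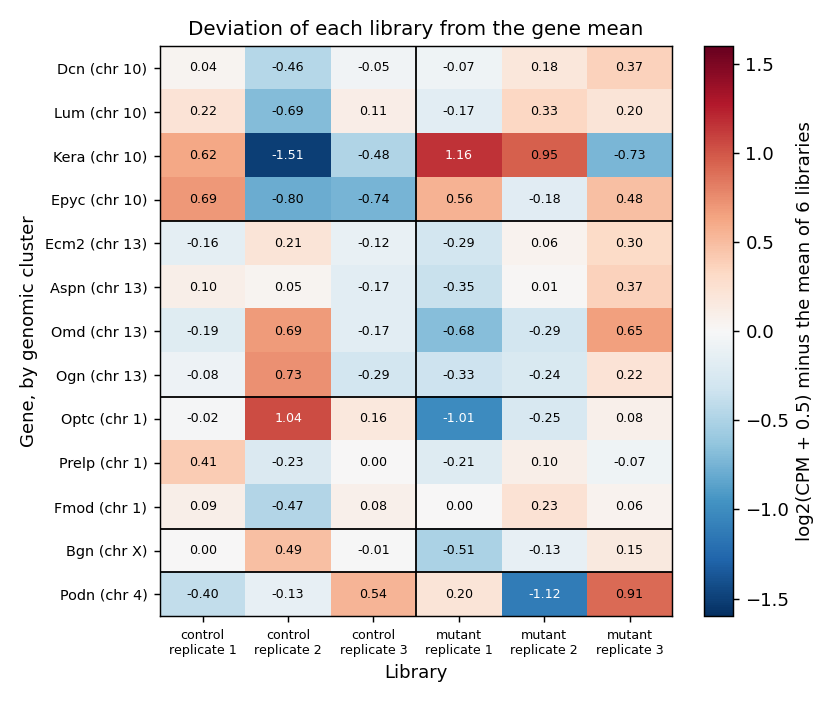
Deviation of each library (columns) from the mean of its gene (rows), on the scale of log2(CPM + 0.5), for the 10 members and 3 neighbours (Epyc, Ecm2 and Optc), ordered by genomic cluster. In control replicate 2, Kera lies at -1.51 and Lum at -0.69, while Ogn lies at 0.73 and Omd at 0.69.

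The balance among the members does not depend on the scaling of libraries, since it is a ratio within each of them. Of the counts of the 10 genes, Dcn took 52.1%, 46.5% and 53.4% in the controls, and 58.0%, 56.3% and 58.7% in the mutants. Every mutant thus lay above every control, with means of 50.7% ± 3.69 and 57.7% ± 1.23 (SD, n = 3 each). A two-sided exact permutation test gave p = 0.1, below which groups of 3 cannot go. The shares of Bgn (12.2%, 21.6% and 13.3% against 10.4%, 11% and 12.2%) and of Prelp (15.8%, 12.7% and 13% against 12.4%, 12.5% and 10.2%) were lower in every mutant, although the nearest libraries for Bgn both came to 12.2%, and the other 7 shares overlapped. Shares sum to the whole, so these 3 of 10 are not independent, and they stand beside the 8.87% of all genes whose levels did not overlap. The ratio of Dcn to Bgn counts was 4.26, 2.15 and 4.03 in the controls and 5.60, 5.12 and 4.80 in the mutants. Of all 45 ratios between members, 4 separated the groups, or 8.89%. These were Dcn to Bgn, Dcn to Prelp and Fmod to Prelp, all higher in the mutants, and Bgn to Aspn, lower in the mutants. The 8.87% above refers to levels of single genes and not to ratios. Ratios between other genes were not computed, so whether 8.89% is usual was not tested. The ratios depend on each other as well. These shares and ratios were examined after the levels had been seen.

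**Figure D4:**
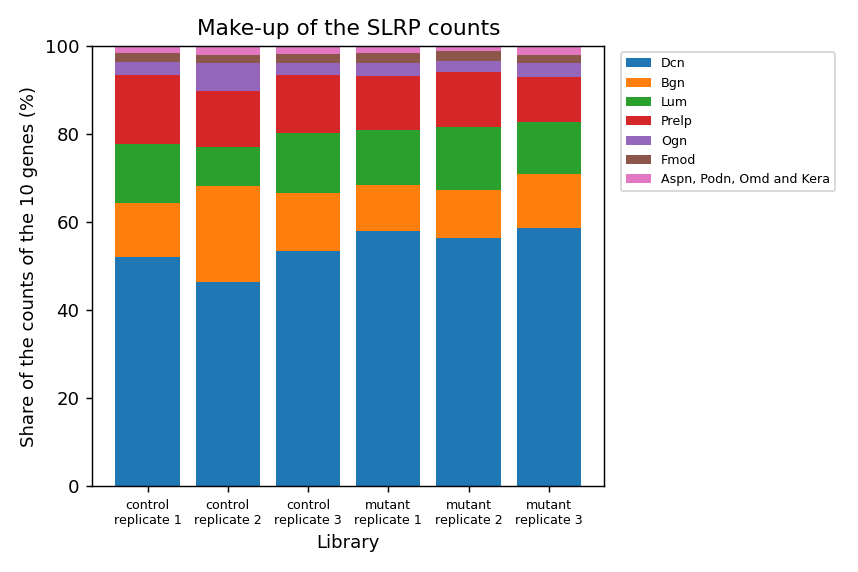
Make-up of the counts of the 10 members in each library (stacked bars, percent of their sum). Dcn takes 46.5% to 53.4% in the controls and 56.3% to 58.7% in the mutants, and Bgn takes 21.6% in control replicate 2.

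The sex-linked signals did not divide the groups evenly, so the members were also compared within replicate 1 and within the other replicates. Between mutant and control replicate 1, which both had high Xist and few Y-linked counts, 2 members (Kera and Podn) were higher in the mutant. Between the libraries numbered 2 and 3 of each group, 6 members were higher in the mutants, but there the mutants also carried more Xist counts than the controls, so the signal was not matched. The direction was the same in both comparisons for 4 members, Bgn, Ogn and Omd (lower) and Kera (higher). The first comparison holds a single library per group and has no replicate check.

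Among 9 other SLRP genes, 7 passed the minimum count and 0 were called, with 3 higher and 4 lower in the mutants and a median log2 fold change of -0.19. Chad, which encodes chondroadherin of cartilage, was read at 250.2, 45.1 and 100.3 CPM in the controls and 104.1, 94.3 and 75.5 CPM in the mutants. Epyc, which encodes epiphycan, a class III SLRP of growth cartilage, was read at 48.8, 17.0 and 17.7 CPM in the controls and 44.2, 26.3 and 41.9 CPM in the mutants, so that both libraries numbered 1 stood high. Optc, encoding opticin, had the smallest unadjusted p of these genes (0.0714 from edgeR), with 8.43, 18.2 and 9.68 CPM in the controls and 4.00, 7.14 and 9.14 CPM in the mutants. Ecm2, the neighbour of Aspn, was read at 108.7, 140.1 and 111.1 CPM against 99.2, 126.1 and 149.8 CPM, with overlapping groups. Chadl and Tsku were read at 3.39 to 9.61 CPM with overlapping groups, and Nyx at no more than 0.761 CPM. Nepn and Podnl1 did not reach the minimum count.

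SLRPs are secreted after chain assembly by glycosyltransferases and sulfotransferases. A list of 34 genes held these enzymes together with the kinase Fam20b, the sulfate donor genes Papss1, Papss2 and Slc35b2, and Tpst1 and Tpst2, which sulfate tyrosines. Of the list 33 genes were tested, with 10 higher, 23 lower and 0 called, and a median log2 fold change of -0.08. The smallest unadjusted p belonged to Csgalnact1, which starts chondroitin sulfate chains, at 47.8, 54.6 and 59.8 CPM in the controls and 37.1, 43.9 and 41.9 CPM in the mutants (log2 fold change -0.40, standard error 0.12). Xylt1, which adds the first sugar to the core protein, was read at 2.28, 1.68 and 2.13 CPM against 1.20, 0.911 and 1.22 CPM, a log2 fold change of -0.87 (standard error 0.32). Chst11, a chondroitin sulfotransferase, was higher in every mutant, with 4.16, 5.80 and 5.81 CPM against 6.33, 7.24 and 9.14 CPM. The groups also did not overlap for Chsy3, a chondroitin synthase, at 3.64, 6.21 and 3.81 CPM against 3.15, 3.14 and 2.76 CPM. These 4 genes of 33 stand beside the 8.87% of all genes without overlap, and each had an adjusted p of 0.999 in edgeR. For Xylt2 (log2 fold change -0.13, standard error 0.13) and Csgalnact2 (-0.12, standard error 0.10) of the same list the groups overlapped.

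The 14 collagen chains on which SLRPs act were 12 lower and 2 higher, with 0 called and a median log2 fold change of -0.11. Those with the smallest p were Col11a1 (log2 fold change -1.50, standard error 0.79), Col1a2 (-0.24, standard error 0.20) and Col3a1 (-0.27, standard error 0.28). In all 14 the groups overlapped. Of 14 proteases and their enhancers that cut SLRPs or their partners, 12 were tested, 9 were higher, 3 lower and 0 called, led by Mmp13 (0.98, standard error 0.45), Pcolce2 (0.42, standard error 0.25) and Adamts5 (-0.37, standard error 0.25). Of 23 receptors and bound growth factors, all tested, 11 were higher, 12 lower and 0 called. C1qa, a complement subunit also used as a macrophage marker, lay above all controls in every mutant (log2 fold change 0.34, standard error 0.11). Tgfb3 lay below them in every mutant (-0.47, standard error 0.19), and Bmp4 came next by p (-0.77, standard error 0.35). Of the 23 genes, 1 thus lay above and 1 below, beside the 8.87% of all genes whose groups did not overlap. Over these 5 lists together, 89 genes were tested and 4 had an unadjusted p under 0.05 in edgeR, beside 3.45% of all genes.

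Markers of several cell types were read in the same libraries. Of the 10 interstitial markers 6 were higher and 4 lower in the mutants, with a median log2 fold change of 0.02. Of these 1 had an unadjusted p under 0.05 and 0 were called in edgeR. The 10 endothelial markers were 5 higher and 5 lower, with a median of -0.06 and 0 called. Summed over 10 cartilage genes the level was 298.0 to 563.1 CPM in the controls and 381.0 to 512.1 CPM in the mutants. The 9 bone markers summed to 31.7 to 140.5 CPM in the controls and 38.2 to 52.6 CPM in the mutants. Of the 6 bone markers tested 5 were lower, with a median log2 fold change of -0.84 and 0 called in edgeR. Ibsp and Phex lay below every control in every mutant (4.83% of all genes), Phex with an unadjusted p under 0.05 (3.45% of all genes). For Ibsp the nearest libraries, control replicate 2 and mutant replicate 1, had 14 counts each (0.277 and 0.270 CPM). The 8 tendon markers, which include Kera and Fmod, summed to 339.5 to 459.5 CPM in the controls and 418.6 to 459.4 CPM in the mutants. These 3 ranges overlapped between the groups. Macrophage markers did not overlap, with 7 genes summing to 1271 to 1411 CPM in the controls and 1675 to 1824 CPM in the mutants, and all 7 were higher, 4 of them above every control in every mutant (4.04% of all genes), 4 with an unadjusted p under 0.05 and 0 called in edgeR. The 7 lymphocyte markers (median log2 fold change 1.09) and the 7 melanocyte markers (0.66) were also higher without exception. For Igj and Cd3e (lymphocyte) and Mitf (melanocyte) every mutant lay above every control, each with an unadjusted p under 0.05. Igj had the smallest p of all genes tested (1.87e-04 in edgeR). The 10 adipocyte markers (-0.37) and 7 mesothelial markers (-0.82) were lower without exception. In both lists 0 genes lay below every control in every mutant, and 1 adipocyte gene had an unadjusted p under 0.05. In these 4 lists the summed levels overlapped and 0 genes were called in edgeR. The melanocyte sum was lowest in control replicate 2, at 28.1 CPM. It was 176.9 and 84.3 CPM in the other controls and 200.8, 108.8 and 84.8 CPM in the mutants. Control replicate 2 had the highest adipocyte and mesothelial sums. Without that library the mean sum of each of these lists was higher in the mutants than in the controls. The mesothelial sum was 130.5 and 252.9 CPM in the other controls and 149.6, 394.7 and 553.9 CPM in the mutants, and the adipocyte sum was 607.5 and 566.3 CPM against 554.0, 431.9 and 1124 CPM. Smooth muscle markers were lower in the mutants for 9 of 10 genes, with a median log2 fold change of -0.84, 4 genes with every mutant below every control (4.83% of all genes), 2 with an unadjusted p under 0.05 (3.45% of all genes) and 0 called in edgeR. Their summed level was 8148, 14760 and 7323 CPM in the controls and 4040, 6811 and 7417 CPM in the mutants, which overlap. Control replicate 2 again had the highest sum. The part of these marker lists in the SLRP values, the shares of Dcn and Bgn included, was not tested.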

How the data were processed

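RNA of aortic valves from 3 control and 3 caAcvr1:Nfatc1Cre mutant samples was sequenced on an Illumina HiSeq by the authors. Per the labels and methods, reads were aligned to mm10 with TopHat2 2.0.13 and Bowtie2 and quantified with Cufflinks and Cuffdiff 2.1.1. The deposited values are estimated counts per gene, not scaled for library size, of which 1.66% to 1.87% per library were not whole and were rounded. Columns were matched to samples by their descriptions.

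The 15354 genes that reached 10 counts in 3 or more libraries were fitted in R 4.3.3 with edgeR 4.0.16 (TMM, quasi-likelihood F test, two-sided, Benjamini-Hochberg over all genes tested, threshold 0.05). Cuffdiff needs aligned reads and was not run. The study reports at least 3 independent samples per assay, without stating that each library came from separate animals. Without that, p-values measure only the spread between these samples. The 10 members and all gene lists were chosen with earlier results of these data known. All members are named, with all other SLRP genes, the 3 genes of smallest p in each pathway list (enzymes, collagens, proteases, receptors and growth factors) and the closest profile to each member. Positions and lengths came from GENCODE M21, and promoters from RefSeq. Alternatives used DESeq2 1.42.0, limma 3.58.1, other scalings and filters, the replicate number, a term for Y-linked genes added later, and leaving out each library. The pipeline was tested on simulated data.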

Additional observations from a re-analysis of the deposited data

How the results depend on the processing

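Under the 15 alternatives, 0 members were called, with adjusted p-values of at least 0.901; Kera was not tested with a mean count of at least 100, and the other 9 members were. The count of all genes called was 26 in DESeq2 and 529 at an unadjusted threshold, and that of the other lists' members was 2 in DESeq2 (Igj and Lyz2), against 0 of each in edgeR. Of 149 log2 fold changes of members under alternatives, 12 reversed in sign, 9 of them with a library left out, and none of Dcn, Bgn, Fmod or Kera did. In limma-voom that of Podn was -0.0276, and with quality weights Podn was -0.0615 and Ogn 0.0365, while Bgn moved to -0.133, Fmod to 0.0901, Lum to 0.116, Omd to -0.000301 and Aspn to 0.129; the cause was not tested. Leaving out each library in turn gave ranges of 0.177 to 0.416 for Dcn, -0.0258 to 0.37 for Lum, -0.27 to 0.0572 for Prelp, -0.484 to 0.0834 for Ogn, -0.668 to 0.189 for Omd, -0.154 to 0.207 for Aspn and -0.378 to 0.541 for Podn. The count of members whose groups do not overlap ran from 0 to 3 in the same way, with Dcn higher without mutant replicate 1, and Bgn and Omd lower and Kera higher without mutant replicate 3; the groups of 16.8% to 19.9% of all genes did not overlap in these settings. The difference in the Dcn share ran from 4.88 to 8.35 percentage points, and that in the share of all counts from 0.0314 to 0.181. Levels per length kept the order of 8 of 10 members with the longest transcript as length.

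With the replicate number as a block, 0 members and 0 genes in all were called, and 6 members were higher, among them Podn at 0.00288 and Aspn at 0.0184 (0.16 and 0.04 without the block). Same-numbered libraries correlated at 0.37, 0.17 and 0.02 in their deviations from the group means, and mutant replicate 3 correlated best with control replicate 2 (0.24), so the numbers were not taken to pair the samples. With the term for Y-linked genes, chosen after seeing the data, 0 members were called and 6 were higher. Groups of 3 limit the precision.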
